A study of Mus musculus with 6 samples.

Results

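The cytochrome P450 family of the mouse is coded by the Cyp genes, and 100 of the 23108 named rows of the deposited table carry a symbol that starts with Cyp and a family number. Members were taken by symbol alone, leaving out Cyp51, whose product acts in sterol synthesis, and 5 of the 100 carry the -ps ending of a pseudogene. The samples were 3 TNFR2 knockout mice (TNFR2-/-, without the tumor necrosis factor receptor coded by Tnfrsf1b) and 3 wildtype mice. All 6 were males of strain C57Bl/6 aged 8 weeks, with 1 library of distal colon mRNA per mouse. Neither the deleted part of Tnfrsf1b nor the relation of the wildtype mice to the knockouts is stated in the sources. The comparison asks how the distal colon without TNFR2 differs from wildtype, here for the P450 genes.

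P450 enzymes hold a heme group and use it to add oxygen to fatty substrates, with electrons from P450 reductase (Por) in the endoplasmic reticulum or from ferredoxin in mitochondria. Families 1, 2 and 3 act mainly on drugs and foreign compounds and, in part, on arachidonic acid, while family 4 acts mainly on fatty acids and leukotrienes. Other families have narrow tasks in the making or removal of steroids, bile acids, vitamin D and retinoic acid. In the gut the epithelium carries most of the foreign-compound enzymes, which meet substances from food and bacteria before the liver does.

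Levels are in FPKM, which divide fragment numbers by transcript length and by the size of the library, so levels of different genes can be set side by side. Tests are on log2(FPKM + 1) in limma, knockout minus wildtype, with Benjamini-Hochberg adjustment over all 14564 named rows that averaged at least 0.5 FPKM. Differences on this scale understate those of low genes. The targeted gene Tnfrsf1b measured 1.17, 1.12 and 0.924 FPKM in knockout libraries 1, 2 and 3, against 7.49, 8.20 and 8.17 FPKM in wildtype libraries 1, 2 and 3. Tissue markers differed between libraries. The median of 8 colonocyte genes was 351, 252 and 349 FPKM in knockout libraries and 234, 332 and 253 FPKM in wildtype libraries. The median of 20 skin genes was 2.80, 25.6 and 40.5 FPKM in knockout libraries and 51.6, 22.1 and 59.8 FPKM in wildtype libraries. Macrophage genes summed to 415, 415 and 293 FPKM in knockout libraries and 545, 483 and 510.2 FPKM in wildtype libraries, and endothelial genes to 33.6, 34.5 and 27.1 FPKM in knockout libraries and 51.4, 38.6 and 48.2 FPKM in wildtype libraries, without overlap. Unadjusted p-values under 0.05 in limma were found for 7 of 8 macrophage and 4 of 5 endothelial genes, and 0 were called. In this fit 16.2% of all tested rows had such a p, which is the background for every list below. Knockout means were lower for 7 macrophage and all 5 endothelial genes, and higher for 1 macrophage gene, Cd14. The colonocyte and skin medians recur below beside P450 genes with a similar library order. In bulk tissue, fewer cells of a type and less RNA per cell cannot be told apart.

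Of the 100 genes, 42 averaged at least 0.5 FPKM and were tested, 41 were lower but above 0 in at least 1 library, and 17 were listed at 0 in all 6. The highest value of any untested gene was 0.894 FPKM. A listed 0 may stand for no reads or for a level that could not be estimated, and the table does not tell these apart. The summed level of all 100 genes was 996, 928 and 1105 FPKM in knockout libraries and 848, 1079 and 916 FPKM in wildtype libraries, so the groups overlapped. A single gene, Cyp2c55, made up 50.7% of the summed level, and the 9 Cyp2d genes a further 18.2%. Averages of at least 10 FPKM were found for 17 genes and of 1 to 10 FPKM for 22.

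**Figure D1:**
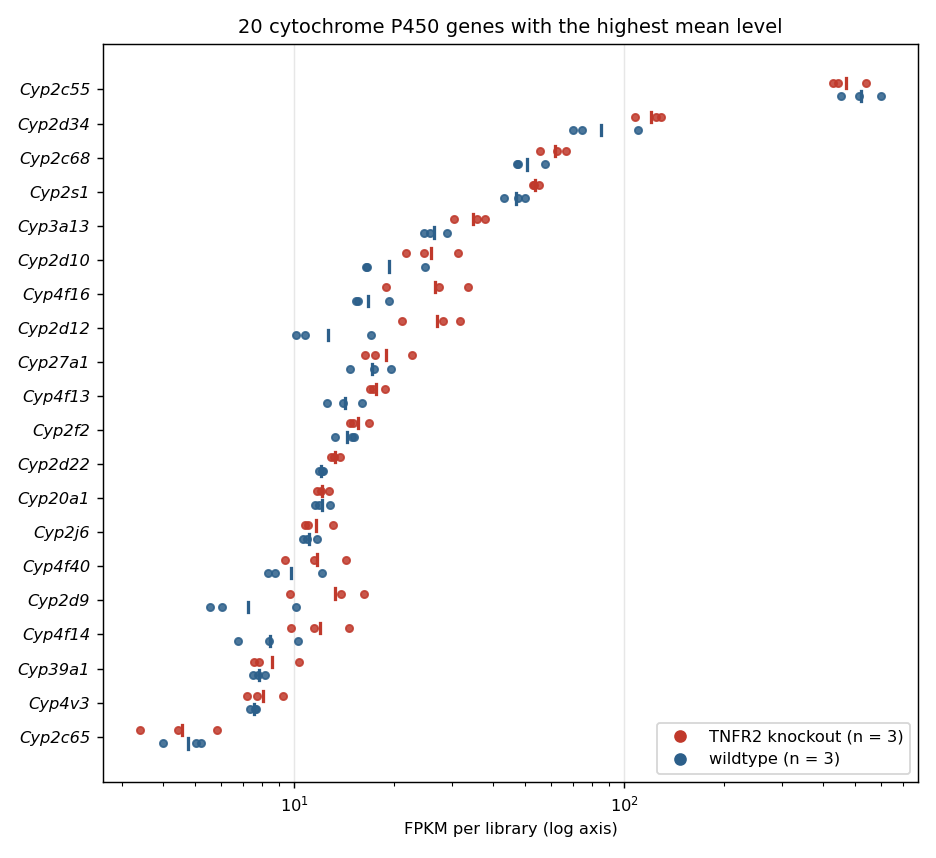
FPKM in each library (log axis) of the 20 P450 genes with the highest mean over the 6 libraries, TNFR2 knockout in red above wildtype in blue, with points for libraries and ticks for group means (n = 3 each). Cyp2c55 stands alone at 428 to 601 FPKM, and the groups are apart for Cyp2d12, Cyp3a13, Cyp2s1, Cyp4f13 and Cyp2d22.

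No P450 gene passed the adjusted threshold in limma (0 of 42), where 0.288% of all tested rows did. At an unadjusted p under 0.05 there were 13 of 42 (31%), against a background of 16.2%. The number of members was 4 without knockout library 1 (background 10.9%), 5 without knockout library 3 (10.5%), 5 without wildtype library 1 (8.29%) and 7 without wildtype library 3 (8.49%). It was 13 without knockout library 2 (17.6%), 18 without wildtype library 2 (23.2%) and 5 with the mean of the skin genes as a covariate (10.4%). As a share of the 42 members, this was below the background without knockout library 1. It was near the background without knockout library 3 and with the skin covariate, and above it in the other settings. Of the 13 in the reported fit, 12 were higher in the knockout (28.6% of members, background 6.3%) and 1 was lower (2.38%, background 9.91%). Every knockout library lay above every wildtype library for 8 genes (19%), where 9.3% of all tested rows did so, and below for 0 genes, where 12.5% did. In all, 30 genes had higher and 12 had lower means in the knockout (71.4% higher, background 42.6%). The median log2 difference was 0.12 over the 42 genes and -0.03 over all tested rows. The authors' deposited table, made with Cuffdiff 2, called 1 of 83 P450 genes with a test at a q-value under 0.05 (1.2%, background 1.24%). It was Cyp2d12, higher in the knockout; over all rows with a test, 0.114% were called higher and 1.13% lower. Many of these genes lie in clusters, and some share sequence or a library order with tissue markers, so the shares are not independent counts.

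**Figure D2:**
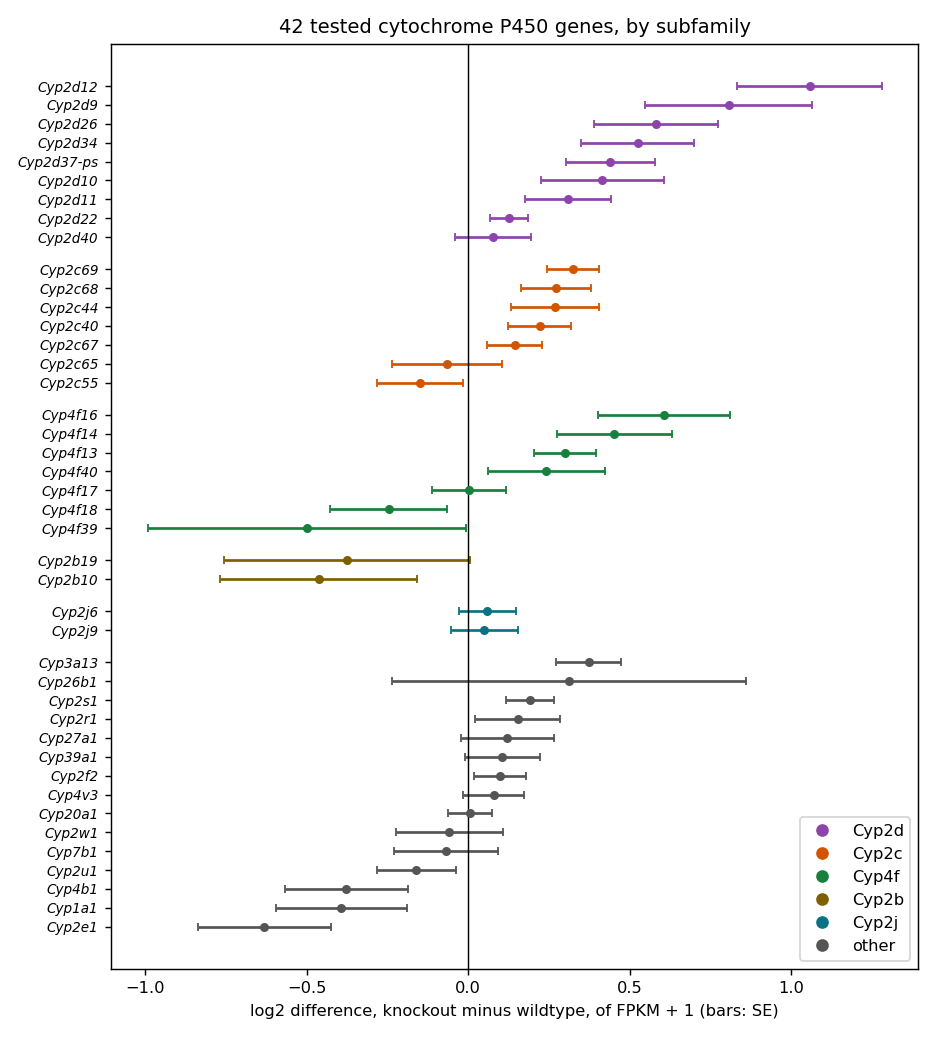
Log2 difference of FPKM + 1, knockout minus wildtype, for the 42 tested P450 genes grouped by subfamily, with bars for the SE (n = 3 libraries each). All 9 Cyp2d genes lie right of 0, from 0.08 to 1.06, while Cyp2e1 lies farthest left at -0.63.

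The Cyp2c genes are the main epoxygenases of arachidonic acid in the mouse, and Cyp2c55 (chr19:39006899-39043883, mm10) is a colon-rich member that forms hydroxylated and epoxidised products of that acid. It measured 444, 428 and 540.3 FPKM in knockout libraries, against 453, 601 and 514 FPKM in wildtype libraries. The groups overlapped, and knockout library 3 stood above 2 of the 3 wildtype libraries. The mean was 471 ± 60.8 FPKM in the knockout and 522 ± 74.6 FPKM in wildtype (SD, n = 3 each). The log2 difference was -0.15, with a 95% interval of -0.46 to 0.17 (limma, Benjamini-Hochberg adjusted p = 0.60). The difference was -0.25 without knockout library 3, -0.25 without wildtype library 1, -0.08 without knockout library 2 and -0.04 without wildtype library 2, so single libraries moved it by over 1.5 times. Its level was 4.84 times that of the next P450 gene, Cyp2d34.

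Cyp2c68, the other Cyp2c gene at high level, measured 66.7, 55.4 and 62.3 FPKM in knockout libraries and 47.2, 57.7 and 47.5 FPKM in wildtype libraries. Wildtype library 2 lay above knockout library 2, and the other wildtype libraries lay below all knockout ones. The difference was 0.27 ± 0.11 on the log2 scale (SE; limma, Benjamini-Hochberg adjusted p = 0.29). Cyp2c69 measured 2.40, 2.25 and 2.16 FPKM in knockout libraries and 1.61, 1.70 and 1.52 FPKM in wildtype libraries, with no overlap. It had the second smallest limma p of the family, with a log2 difference of 0.32 ± 0.08 (SE; limma, Benjamini-Hochberg adjusted p = 0.21). In the authors' deposited table its unadjusted p was 0.26 (Cuffdiff 2). Cyp2c65, another gut member of the subfamily, measured 3.40, 4.44 and 5.80 FPKM in knockout libraries and 3.98, 5.22 and 5.02 FPKM in wildtype libraries, and the groups overlapped.

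Cyp2c40, Cyp2c67, Cyp2c68 and Cyp2c69 lie side by side and are close copies. Of the distinct 50-base stretches in their GENCODE transcripts, 60.3%, 52.8%, 43.3% and 54.3% also occur in another gene, so reads of 50 bp cannot always be assigned to 1 of them. Their summed level was 74.2, 62.0 and 69.5 FPKM in knockout libraries, against 52.6, 63.8 and 52.7 FPKM in wildtype libraries. Here wildtype library 2 lay between knockout libraries 2 and 3, as it did for the colonocyte median. Cyp2c55 shares no such stretch with another P450 gene. The split within the cluster, with Cyp2c55 lower in mean and these 4 higher, was not tested as a difference.

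The likeness of the 4 copies extends to their start regions, shown here because these genes had higher knockout means together. The stretches are from RefSeq on GRCm38.p6, minus strand, with capitals for the letters CAAAGTCCA, a motif bound by the liver and gut factor HNF4A. They are chr19:39741125-39741223 for Cyp2c68, chr19:39886791-39886889 for Cyp2c69, chr19:39812806-39812904 for Cyp2c40 and chr19:39649114-39649212 for Cyp2c67.
Cyp2c68: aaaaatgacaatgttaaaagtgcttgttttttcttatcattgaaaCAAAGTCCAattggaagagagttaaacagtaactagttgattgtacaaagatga
Cyp2c69: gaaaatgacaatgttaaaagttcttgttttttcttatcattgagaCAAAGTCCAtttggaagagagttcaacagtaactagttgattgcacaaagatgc
Cyp2c40: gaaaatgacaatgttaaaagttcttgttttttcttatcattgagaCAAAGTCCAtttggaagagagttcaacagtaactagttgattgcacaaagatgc
Cyp2c67: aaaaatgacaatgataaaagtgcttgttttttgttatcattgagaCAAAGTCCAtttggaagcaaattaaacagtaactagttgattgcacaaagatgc
The stretches of Cyp2c69 and Cyp2c40 differed at 0 of 99 bases, and that of Cyp2c67 differed from that of Cyp2c68 at 9. On either strand of the 300-base window around the gene start, CAAAGTCCA occurred in 11 of 75 P450 genes with a window (14.7%) and in 0.555% of all 27025 genes. The 11 are Cyp2c40, Cyp2c65, Cyp2c67, Cyp2c68, Cyp2c69, Cyp2c70, Cyp3a11, Cyp3a16, Cyp3a41a, Cyp3a41b and Cyp8b1. Among them the Cyp3a genes are listed at 0 in all 6 libraries, so the letters occur in start regions of both abundant genes and genes listed at 0. The window of Cyp2c55 does not hold them. CAAAGTCCA was picked with these sequences in view. Several of the 11 genes are close copies, so these shares are not independent counts and carry no test.

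The Cyp2d genes, relatives of the human drug-metabolising enzyme CYP2D6, were the subfamily with the most tested members and the most with higher knockout means. All 9 lie within 424 kb of chromosome 15 (82370527 to 82794262), and all 9 were tested. Each of the 9 had a higher mean in the knockout (background 42.6%), and the median of their log2 differences was 0.44. None passed the adjusted threshold in limma, and 5 of the 9 had an unadjusted p under 0.05 (background 16.2% in either direction). The groups did not overlap for 3 of the 9, Cyp2d12, Cyp2d22 and Cyp2d37-ps. Of all tested rows, 9.3% had every knockout library above every wildtype library. The summed level of the 9 was 223, 183 and 228 FPKM in knockout libraries, against 122, 183 and 126 FPKM in wildtype libraries, so knockout library 2 and wildtype library 2 stood level.

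Cyp2d12 (chr15:82555047-82559756) had the largest log2 difference among the 42 tested members. It measured 28.1, 21.2 and 31.7 FPKM in knockout libraries, against 10.1, 17.01 and 10.7 FPKM in wildtype libraries. Every knockout library lay above every wildtype library. The mean was 27.0 ± 5.31 FPKM in the knockout and 12.6 ± 3.82 FPKM in wildtype (SD, n = 3 each), 2.14-fold higher. The log2 difference was 1.06 ± 0.22 (SE; limma, Benjamini-Hochberg adjusted p = 0.18), and in the authors' deposited table it was 1.09 with a q-value of 0.0020. The limma value passed without wildtype library 2 (1.28, adjusted p = 0.047) and, in a fit added after the data were seen, with the mean of the colonocyte genes as a covariate (0.86, adjusted p = 0.019). Over all settings its Benjamini-Hochberg adjusted p in limma ran from 0.019 to 0.54 and its log2 difference from 0.86 to 1.28.

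Cyp2d34, the most abundant of the subfamily, measured 124, 108 and 129 FPKM in knockout libraries, against 70.1, 110.1 and 74.3 FPKM in wildtype libraries. Only wildtype library 2 reached the knockout range. Its log2 difference was 0.52 ± 0.18 (SE; limma, Benjamini-Hochberg adjusted p = 0.27). Cyp2d9, known in mouse liver as a testosterone hydroxylase of males, measured 13.9, 9.70 and 16.2 FPKM in knockout libraries, against 6.04, 10.1 and 5.53 FPKM in wildtype libraries, with the same single overlap. Its log2 difference was 0.81 ± 0.26 (SE; limma, Benjamini-Hochberg adjusted p = 0.26). Cyp2d10 measured 31.3, 21.7 and 24.7 FPKM in knockout libraries and 16.5, 24.8 and 16.6 FPKM in wildtype libraries, where wildtype library 2 lay above 2 of the knockout libraries. Cyp2d26 measured 6.34, 3.85 and 6.83 FPKM in knockout libraries and 3.41, 3.87 and 2.86 FPKM in wildtype libraries, and knockout library 2 fell within the wildtype range.

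Cyp2d22, often named as the mouse gene nearest to CYP2D6, was steadier, at 13.7, 12.9 and 13.2 FPKM in knockout libraries, against 11.9, 12.2 and 12.1 FPKM in wildtype libraries. The groups did not overlap, with a 1.10-fold higher mean in the knockout (log2 difference 0.13 ± 0.06, SE; limma, Benjamini-Hochberg adjusted p = 0.33). The pseudogene Cyp2d37-ps measured 2.16, 3.40 and 2.99 FPKM in knockout libraries, against 1.63, 2.04 and 1.78 FPKM in wildtype libraries, also without overlap (log2 difference 0.44 ± 0.14, SE; limma, Benjamini-Hochberg adjusted p = 0.25). Cyp2d11 averaged 2.54 ± 0.300 FPKM in the knockout and 1.87 ± 0.453 FPKM in wildtype, and Cyp2d40 0.758 ± 0.170 FPKM in the knockout and 0.668 ± 0.165 FPKM in wildtype (SD, n = 3 each). The rows of Cyp2d34, Cyp2d37-ps and Cyp2d40 carry 1 shared locus in the deposited table. For Cyp2d37-ps the authors' unadjusted p was 0.84 (Cuffdiff 2).

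**Figure D3:**
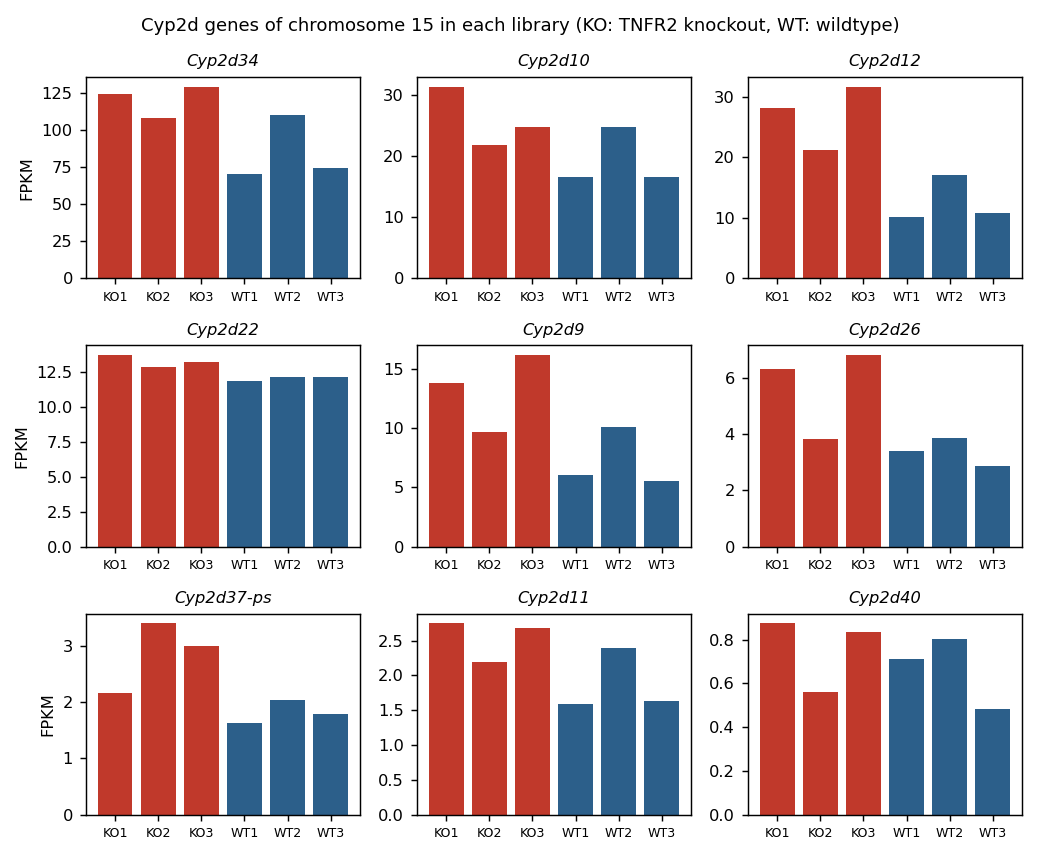
FPKM of the 9 Cyp2d genes of chromosome 15 in each library, TNFR2 knockout (KO, red) left of wildtype (WT, blue), with bars from 0 for single libraries. In all 9 panels WT2 stands above WT1 and WT3, and for Cyp2d12 all 3 knockout bars, at 21.2 to 31.7 FPKM, top the highest wildtype bar of 17.01 FPKM.

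The Cyp2d genes also share transcript sequence, though less than the Cyp2c copies. Cyp2d11 and Cyp2d10 share 37.2% and 35.8% of their 50-base stretches with another gene, Cyp2d9 21.8% and Cyp2d12 7.61%. In the start regions of Cyp2d9, Cyp2d10, Cyp2d11 and Cyp2d40 the letters CAAAGGGCA, marked in capitals, stand ahead of a common stretch. CAAAGGGCA resembles the direct repeats bound by HNF4A, and both motifs were picked with these sequences in view. The sequences are from RefSeq on GRCm38.p6: chr15:82452267-82452395 (plus strand) for Cyp2d9, and on the minus strand chr15:82407179-82407307 for Cyp2d10, chr15:82394019-82394147 for Cyp2d11 and chr15:82764167-82764295 for Cyp2d40.
Cyp2d9: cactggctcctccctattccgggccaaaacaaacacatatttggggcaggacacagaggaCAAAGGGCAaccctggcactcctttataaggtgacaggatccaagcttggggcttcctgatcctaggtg
Cyp2d10: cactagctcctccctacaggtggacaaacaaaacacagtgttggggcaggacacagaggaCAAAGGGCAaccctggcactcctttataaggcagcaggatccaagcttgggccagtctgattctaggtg
Cyp2d11: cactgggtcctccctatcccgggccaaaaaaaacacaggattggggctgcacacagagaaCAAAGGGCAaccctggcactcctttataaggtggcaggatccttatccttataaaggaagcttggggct
Cyp2d40: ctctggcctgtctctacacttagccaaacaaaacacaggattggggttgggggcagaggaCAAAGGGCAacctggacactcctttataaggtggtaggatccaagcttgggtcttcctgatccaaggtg
In each of the 4 the stretch cactcctttataagg begins 7 bases after the capitals. CAAAGGGCA occurred on either strand in the start windows of these 4 P450 genes of 75 (5.33%) and of 0.540% of all genes. Cyp2d12, Cyp2d22 and Cyp2d34 had no start window and were not searched. The 4 differ in level from Cyp2d10, at 25.9 ± 4.91 FPKM in the knockout and 19.3 ± 4.76 FPKM in wildtype (SD, n = 3 each), down to Cyp2d40, below 1 FPKM in every library. The letters TATAAA occurred on either strand in 44% of P450 genes with a window and in 15.7% of all genes.

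The colonocyte median and the Cyp2d sum had a library order partly in common. The colonocyte median was 351, 252 and 349 FPKM in knockout libraries and 234, 332 and 253 FPKM in wildtype libraries, lowest of the knockouts in library 2 and highest of the wildtypes in library 2, as was the Cyp2d sum. Of the 8 colonocyte genes 6 had higher means in the knockout, 0 were called in limma and 1 had an unadjusted p under 0.05, and their summed level spanned 3169 to 4536 FPKM in the knockout and 2945 to 4087 FPKM in wildtype. No marker of the list was at 0. Cyp2d34 made up the largest part of the Cyp2d sum, and Cyp2d37-ps was instead highest of the knockouts in library 2. The library order was not confined to colonocyte or Cyp2d genes. Cyp2c55 was also lowest of the knockouts in library 2 and highest of the wildtypes in library 2. Of all tested rows, 43.2% were highest of the wildtypes in library 2. For 6 goblet cell genes the median was 847, 579 and 725 FPKM in knockout and 602, 755 and 623 FPKM in wildtype libraries. This goblet median too was lowest of the knockouts in library 2 and highest of the wildtypes in library 2. All 6 goblet genes averaged more in the knockout, 0 were called in limma and 0 had an unadjusted p under 0.05. Which cell type, if any, the Cyp2d values follow was not tested. Divided by the colonocyte median, the Cyp2d sum was 0.636, 0.728 and 0.654 in knockout libraries, against 0.521, 0.552 and 0.498 in wildtype libraries, and these did not overlap. The same ratio for Cyp2c55 was 1.26, 1.70 and 1.55 in knockout libraries and 1.93, 1.81 and 2.03 in wildtype libraries, also without overlap and in the other direction. The divisor itself differed in make-up between the groups. Aqp8, with a higher knockout mean (log2 difference 0.48), was a middle gene of that median in every knockout library and in no wildtype library. A separation of these ratios can therefore come from the divisor as well as from the P450 genes. Both ratios were chosen after the values were seen and carry no test. The share of all rows that lie apart in such a ratio was not computed.

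**Figure D4:**
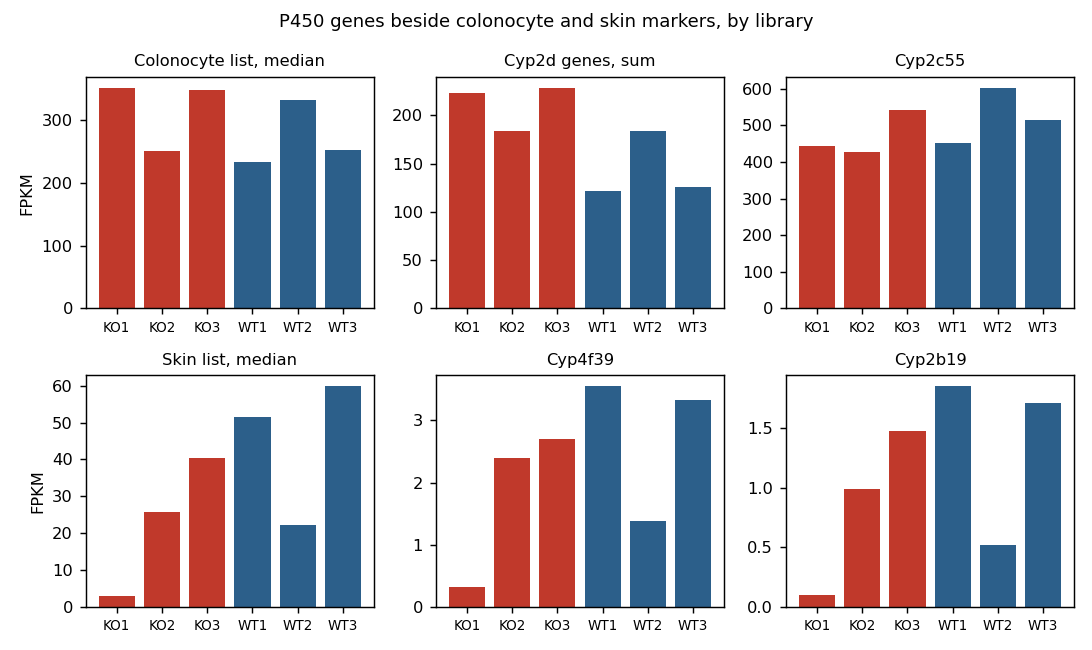
FPKM in each library, TNFR2 knockout (KO, red) left of wildtype (WT, blue), of the colonocyte list median, the Cyp2d sum and Cyp2c55 (top) and of the skin list median, Cyp4f39 and Cyp2b19 (bottom). The Cyp2d sum and the colonocyte median are both lowest of the knockouts in KO2 and highest of the wildtypes in WT2, and Cyp4f39 and Cyp2b19 are lowest in KO1, as the skin median is.

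The Cyp4f genes code for enzymes that hydroxylate the ends of fatty acids and inactivate leukotriene B4. Of 9 members 7 were tested, 5 with higher and 2 with lower means in the knockout. In limma 0 were called, and 3 had an unadjusted p under 0.05 (background 16.2%). Cyp4f16, the most abundant, measured 27.3, 18.9 and 33.6 FPKM in knockout libraries and 15.4, 19.3 and 15.6 FPKM in wildtype libraries. Knockout library 2 lay just under wildtype library 2, and the others were apart. The log2 difference was 0.61 ± 0.21 (SE; limma, Benjamini-Hochberg adjusted p = 0.27), and the q-value in the authors' deposited table was 0.089. Cyp4f13 measured 18.8, 16.9 and 17.3 FPKM in knockout libraries, against 12.6, 16.0 and 14.0 FPKM in wildtype libraries, with no overlap. Its log2 difference was 0.30 ± 0.10 (SE; limma, Benjamini-Hochberg adjusted p = 0.25), and the authors' unadjusted p was 0.21 (Cuffdiff 2). Cyp4f14, which oxidises leukotriene B4 and vitamin E in the mouse, measured 11.5, 9.73 and 14.6 FPKM in knockout libraries and 6.75, 10.2 and 8.37 FPKM in wildtype libraries. Cyp4f40 measured 14.3, 9.36 and 11.4 FPKM in knockout libraries and 8.73, 12.1 and 8.34 FPKM in wildtype libraries, and both of these overlapped. Wildtype library 2 was the highest wildtype library for these 4 of the 7 tested genes, where 43.2% of all tested rows and 59.5% of tested P450 genes had it highest. The median log2 difference of the 7 genes was 0.24. It was 0.09 with the colonocyte covariate, 0.12 with the skin covariate, 0.10 without knockout library 1 and 0.15 without wildtype library 3.

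Among other enzymes of foreign compounds, Cyp3a13, a member of the drug-metabolising family 3 that lies outside the main Cyp3a cluster, measured 30.5, 37.8 and 35.7 FPKM in knockout libraries, against 24.8, 28.9 and 25.8 FPKM in wildtype libraries. The groups did not overlap, and the mean was 34.7 ± 3.78 FPKM in the knockout and 26.5 ± 2.17 FPKM in wildtype (SD, n = 3 each), 1.31-fold higher. The log2 difference was 0.37 ± 0.10 (SE; limma, Benjamini-Hochberg adjusted p = 0.22), and the authors' unadjusted p was 0.074 (Cuffdiff 2). Knockout library 2 was here the highest of the knockout libraries, unlike for the colonocyte median. None of the 8 genes of the main Cyp3a cluster reached 0.5 FPKM in mean, and 4 of them were listed at 0 in all 6 libraries.

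Cyp2s1, an epithelial P450 inducible through the aryl hydrocarbon receptor, measured 55.0, 53.1 and 52.9 FPKM in knockout libraries, against 43.2, 47.7 and 49.9 FPKM in wildtype libraries. The groups were apart, with a 1.14-fold higher mean in the knockout (log2 difference 0.19 ± 0.07, SE; limma, Benjamini-Hochberg adjusted p = 0.29). The authors' unadjusted p was 0.31 (Cuffdiff 2). Cyp2f2, best known from lung club cells, where it activates naphthalene, measured 14.8, 15.1 and 16.8 FPKM in knockout libraries and 15.2, 13.3 and 14.99 FPKM in wildtype libraries. Cyp2j6, of a subfamily of arachidonic acid epoxygenases, measured 13.1, 10.8 and 11.0 FPKM in knockout libraries and 10.6, 11.7 and 10.9 FPKM in wildtype libraries. Both overlapped between the groups, with log2 differences of 0.10 (95% interval -0.09 to 0.29) and 0.06 (-0.15 to 0.27).

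Cyp1a1, the classic target of the aryl hydrocarbon receptor, measured 0.474, 0.873 and 0.961 FPKM in knockout libraries and 1.69, 0.714 and 1.66 FPKM in wildtype libraries. Knockout library 1 was lowest of the 6 and wildtype library 2 lowest of its genotype, as for the skin median. Its relatives Cyp1b1 and Cyp1a2 did not reach 0.5 FPKM. Of 6 genes outside the family that this receptor controls, 2 had higher and 4 had lower means in the knockout, and 0 were called in limma. The 2 with an unadjusted p under 0.05, named after their values were seen, were both lower: Tiparp, with a log2 difference of -0.35, and Aldh3a1, with one of -0.66. The most abundant, a row that names 8 genes of the Ugt1a locus, averaged 70.5 ± 8.94 FPKM in the knockout and 62.6 ± 5.66 FPKM in wildtype, and Nfe2l2 48.0 ± 2.82 FPKM in the knockout and 48.2 ± 2.54 FPKM. GCGTG, the core letters the receptor binds, occurred on either strand in the start windows of 16 of 75 P450 genes (21.3%) and of 35.2% of all genes, Cyp1a1 and Cyp1b1 among them.

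Cyp2e1, which oxidises ethanol and small solvents, was the 1 gene with a lower knockout mean among the 13 with an unadjusted p under 0.05. It measured 1.17, 1.55 and 2.05 FPKM in knockout libraries, against 3.92, 3.21 and 2.01 FPKM in wildtype libraries. Wildtype library 3 lay just below knockout library 3, and the other libraries were apart. The mean was 1.59 ± 0.446 FPKM in the knockout and 3.05 ± 0.966 FPKM in wildtype (SD, n = 3 each), with a log2 difference of -0.63 ± 0.21 (SE; limma, Benjamini-Hochberg adjusted p = 0.26). Fat cells also express Cyp2e1. Of 6 adipocyte genes 5 were tested, and all 5 had lower means in the knockout. In limma 0 were called and 4 of these adipocyte genes had an unadjusted p under 0.05 (background 16.2%). Their summed level was 75.8, 94.0 and 108 FPKM in knockout libraries, against 239, 189 and 143 FPKM in wildtype libraries. The sum, most of it Fabp4, had the order of Cyp2e1 within each genotype, but of the 6 genes only Retn had it alone. Adipoq measured 0.929, 0.562 and 1.64 FPKM in knockout libraries and 4.23, 4.76 and 2.31 FPKM in wildtype libraries. Like Plin1 and Lep, it was lowest of the knockouts in library 2 and highest of the wildtypes in library 2. No adipocyte gene was at 0 in all libraries, and their part in the Cyp2e1 values was not tested.

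A set of low P450 genes followed the skin genes. Cyp4f39, needed for the skin barrier lipid acylceramide, measured 0.316, 2.39 and 2.71 FPKM in knockout libraries and 3.55, 1.37 and 3.33 FPKM in wildtype libraries. Cyp2b19, a P450 of epidermal keratinocytes, measured 0.0959, 0.987 and 1.47 FPKM in knockout libraries and 1.85, 0.517 and 1.71 FPKM in wildtype libraries. For both, as for the skin median of 2.80, 25.6 and 40.5 FPKM in knockout and 51.6, 22.1 and 59.8 FPKM in wildtype libraries, knockout library 1 was lowest of the 6 and wildtype library 2 lowest of its genotype. Cyp2b10, a target of the receptor CAR, gave 0.165, 1.14 and 1.19 FPKM in knockout libraries and 1.58, 0.804 and 2.08 FPKM in wildtype libraries, in the order of the skin median over all 6 libraries. Over all 42 tested P450 genes, 21.4% were lowest of the 6 in knockout library 1, near the 20.2% of all tested rows. All 20 skin genes had lower means in the knockout, and in limma 0 were called and 0 had an unadjusted p under 0.05, with summed levels of 337 to 1649 FPKM in the knockout and 882 to 1855 FPKM in wildtype and none at 0. These P450 genes were picked after their values were seen, and the part of skin RNA in them was not tested.

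Retinoic acid is broken down by the Cyp26 enzymes. Cyp26b1 measured 0.594, 5.73 and 1.74 FPKM in knockout libraries and 1.26, 1.30 and 1.94 FPKM in wildtype libraries, so knockout library 2 alone stood far above the rest. The log2 difference was 0.31, with a 95% interval of -1.08 to 1.71. Cyp26a1 averaged 0.0684 ± 0.0281 FPKM in the knockout and 0.0669 ± 0.00685 FPKM in wildtype (SD, n = 3 each), and Cyp26c1 was listed at 0.

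The vitamin D genes were low except for Cyp27a1, a mitochondrial sterol hydroxylase that also serves bile acid synthesis. Cyp27a1 measured 16.4, 22.7 and 17.6 FPKM in knockout libraries and 19.6, 17.4 and 14.7 FPKM in wildtype libraries, with overlap and a log2 difference of 0.12 (95% interval -0.22 to 0.46). Cyp2r1, which starts the activation of vitamin D, averaged 1.16 ± 0.356 FPKM in the knockout and 0.925 ± 0.118 FPKM in wildtype (SD, n = 3 each). Cyp27b1, which completes it, did not exceed 0.0801 FPKM, and Cyp24a1, which removes the hormone, was listed at 0.

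Of the bile acid and oxysterol genes, Cyp39a1, which acts on oxysterols, measured 10.3, 7.52 and 7.81 FPKM in knockout libraries and 7.49, 7.73 and 8.16 FPKM in wildtype libraries. Cyp7b1, an oxysterol hydroxylase, averaged 1.49 ± 0.303 FPKM in the knockout and 1.62 ± 0.472 FPKM in wildtype (SD, n = 3 each). Both overlapped between groups. Cyp7a1, the rate-limiting enzyme of bile acid synthesis in liver, was listed at 0 and Cyp8b1 stayed at or below 0.163 FPKM. Of the 6 steroid hormone genes none was tested. Cyp11b1, Cyp11b2 and Cyp19a1 were listed at 0, and Cyp11a1, which makes pregnenolone from cholesterol, reached 0.210 FPKM at most.

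Cyp20a1, an orphan P450 with no settled substrate, differed least between the groups among the 20 P450 genes with the highest means. It measured 12.7, 11.7 and 12.1 FPKM in knockout libraries and 12.9, 11.6 and 11.9 FPKM in wildtype libraries, with a log2 difference of 0.01 (95% interval -0.15 to 0.17). Cyp4v3, a fatty acid hydroxylase whose human counterpart is mutated in a crystalline eye disease, measured 9.25, 7.72 and 7.18 FPKM in knockout libraries and 7.62, 7.63 and 7.33 FPKM in wildtype libraries. Its 95% interval for the log2 difference was -0.14 to 0.30.

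Of the genes that serve P450 enzymes, 10 electron donors and partners were tested; 0 were called in limma and 2 had an unadjusted p under 0.05, 4 with higher and 6 with lower means and a median log2 difference of -0.11. Cyb5, a cytochrome b5, averaged 110.5 ± 7.85 FPKM in the knockout and 123 ± 6.95 FPKM in wildtype, and Cyb5r3, its reductase, 103 ± 2.26 FPKM in the knockout and 118 ± 4.12 FPKM (SD, n = 3 each). Of 8 heme synthesis genes 0 were called in limma and 1 had an unadjusted p under 0.05. Urod averaged 35.1 ± 2.11 FPKM in the knockout and 36.2 ± 2.22 FPKM in wildtype, and Alad 31.8 ± 4.63 FPKM in the knockout and 35.6 ± 3.81 FPKM. Of 4 epoxide hydrolases, which open the epoxides that P450 enzymes form, 0 were called in limma. Of these, 3 had an unadjusted p under 0.05 (background 16.2%), and 2 of the 4 had higher and 2 lower means in the knockout. Ephx1 averaged 16.9 ± 1.09 FPKM in the knockout and 21.2 ± 2.65 FPKM in wildtype, and Ephx2 9.67 ± 0.293 FPKM in the knockout and 7.82 ± 0.916 FPKM. The prostanoid P450 genes with other names, Ptgis for prostacyclin and Tbxas1 for thromboxane, gave 0 calls in limma and 1 unadjusted p under 0.05. Ptgis averaged 12.5 ± 2.89 FPKM in the knockout and 17.03 ± 4.19 FPKM in wildtype, and Tbxas1 2.88 ± 0.529 FPKM in the knockout and 4.21 ± 0.265 FPKM in wildtype (SD, n = 3 each). The macrophage and endothelial sums given above were also lower in the knockout, and their part in these values was not tested.

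Among 18 nuclear receptors and partners that control P450 genes, 9 had higher and 9 lower means in the knockout, 0 were called in limma and 4 had an unadjusted p under 0.05. The most abundant were Vdr, the vitamin D receptor, at 81.5 ± 7.12 FPKM in the knockout and 72.2 ± 9.69 FPKM in wildtype, and Ppard, a fatty acid receptor, at 69.4 ± 13.3 FPKM in the knockout and 58.3 ± 7.98 FPKM (SD, n = 3 each). The endoplasmic reductase itself, Por, measured 62.6, 55.9 and 60.3 FPKM in knockout libraries, against 64.7, 70.6 and 70.2 FPKM in wildtype libraries. Every knockout library of Por lay below every wildtype library, with a log2 difference of -0.20 (limma, Benjamini-Hochberg adjusted p = 0.28). The same held for 12.5% of all tested rows, and among the electron donors and partners also for Cyb5r3 and Pgrmc1. Por is named after its values were seen.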

How the data were processed

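Distal colon mRNA of 3 TNFR2 knockout and 3 wildtype mice was analysed from 1 deposited table. Its values are FPKM per gene and library, made by the authors with Tophat2/Bowtie2, Cufflinks and Cuffdiff 2 per the series' design text, on mm10 per the submitters' processing notes. The authors' p-value and q-value are deposited beside a log2 fold change, used here as another deposited value since rows with a group at 0 hold placeholders. The annotation, the tool versions, the strand setting and any scaling across libraries are not stated in the sources. Stated depth averaged 50M reads of 50 bp. FPKM are not counts, so the depth of each library is unknown and no counting interval was computed.

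Groups and replicate numbers came from the labels. Rows without a gene name, 6.13% of 24617, were left out. Named rows with a mean of at least 0.5 FPKM, 14564 in all, entered a fit of log2(FPKM + 1) with limma 3.58.1 (R 4.3.3; trend and robust moderation) and were called at an adjusted p under 0.05. The script was tested on simulated data. Alternatives changed the pseudocount, the filter, the scaling, the moderation, the rows or libraries, or added a replicate block or tissue covariate. Same-numbered libraries were not treated as pairs in the reported fit (correlations of their deviations -0.37, -0.34 and 0.21).

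Genes with per-library values are the 20 highest P450 genes and the 10 tested ones with the smallest p; other lists give the 2 highest. Other genes named with values were chosen after their values were seen. Members, lists and motifs were chosen with earlier results of these data known. File starts count from 0 and are printed 1-based. Start windows (250 bases before to 50 after the start) are from RefSeq, where 75 of 100 members matched by symbol or synonym. Transcripts are GENCODE M21, also GRCm38. A planned comparison of protein sequences was not run. Tables were made with pandas 2.3.3 and figures with matplotlib 3.10.9.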

Additional observations from a re-analysis of the deposited data

How the results depend on the processing

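Over 17 alternatives, 24 named P450 genes gave 408 log2 differences besides those reported: 393 kept their direction and their side of the threshold, 13 changed sign and 2, both of Cyp2d12, moved past the threshold. The number of P450 genes called in limma was 0 in the reported fit and in all alternatives except 2. It was 1 with the colonocyte covariate, chosen after seeing the data, and 0 to 1 when single libraries were left out, with the 1 found without wildtype library 2. All 9 Cyp2d genes kept higher knockout values in every alternative except without wildtype library 3, where 8 of 9 did; with a minimum of 1 FPKM, 8 were tested and all 8 were higher. The median log2 difference of the P450 genes was 0.0034 with no filter on low values, over 83 genes, against 0.12 over 42. Leaving out single libraries moved that median between 0.11 and 0.15.

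Sign changes were confined to 6 genes whose reported log2 difference was at most 0.12 in size. With the skin covariate the log2 differences were -0.0038 for Cyp20a1, 0.087 for Cyp2c65, -0.035 for Cyp2j6, -0.0095 for Cyp39a1 and -0.024 for Cyp4v3. When single libraries were left out they ran from -0.022 to 0.048 for Cyp20a1, -0.012 to 0.21 for Cyp27a1, -0.22 to 0.091 for Cyp2c65, -0.023 to 0.11 for Cyp2j6, -0.022 to 0.18 for Cyp39a1 and -0.014 to 0.15 for Cyp4v3.

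Over all genes 42 were called, 24 with the replicate block, 26 with the skin covariate, 22 without small RNA genes, which tests fewer rows, and 21 to 70 when single libraries were left out. The replicate block called 0 P450 genes and left 6 of 42 with an unadjusted p under 0.05 (background 8.53%), against 13 without it. The labels state no pairing behind the replicate numbers. Deviations of same-numbered libraries correlated at -0.37, -0.34 and 0.21, and whether these libraries share a batch was not tested. When single libraries were left out, the count of P450 genes with an unadjusted p under 0.05 ran from 4 to 18. It was 5 with the skin covariate. The genes behind these counts were not compared. The cause of these shifts was not tested. FPKM without counts limit what can be said of low genes, and 3 libraries per group limit the precision of all.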
